A study of Mus musculus with 9 samples.

Results

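The genes described are 10 genes known from the visceral endoderm, the outer epithelium of the early mouse embryo: Cubn, Amn, Lrp2 and Dab2, which serve endocytosis; Afp, Ttr, Apoa1, Apoe and Rbp4, which encode secreted carrier proteins; and Cited1, which encodes a transcriptional co-regulator. They were taken by symbol from a table of 33495 genes, and each of the 10 names matched 1 gene. The RNA came from RF8, a line of mouse embryonic stem (ES) cells, carrying 1 of 3 constructs: EGFP, a fluorescent protein that serves as the control; the pluripotency factor Nanog in its wild-type form, called WT; or Nanog with the L122A change, called L122A. Each transfectant was grown in 3 cultures. These were the routine medium with leukaemia inhibitory factor at 1000 units per ml (LIF), the same factor withdrawn (no-LIF), and withdrawal together with retinoic acid at 5 µM (RA). There was 1 library for each of the 9 combinations, and a library is named here by its transfectant and culture, such as WT RA. All cells are of 1 ES line. The routine medium also held serum and puromycin. The labels used here state no culture time, no promoter for the constructs and no number of independent transfected lines. An effect of a construct and a trait of its cell population therefore cannot be told apart.

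The visceral endoderm takes up maternal proteins and releases plasma proteins before the liver exists. Cubilin (Cubn) is a large receptor with no membrane anchor of its own, and amnionless (Amn) binds it and carries it to the cell surface. Megalin (Lrp2) is a further giant endocytic receptor on the same apical surface, and Dab2 is a clathrin adaptor that binds the tails of such receptors. Alpha-fetoprotein (Afp), transthyretin (Ttr), retinol-binding protein (Rbp4) and the apolipoproteins Apoa1 and Apoe carry hormones, retinol and lipids, and are used as markers of this epithelium and of fetal liver.

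Gene counts totalled between 24166395 and 28714988 per library. Levels below are CPM, the usual counts-per-million scale, with each library's total scaled by its trimmed-mean (TMM) factor, and intervals on them are exact 95% Poisson intervals that cover counting error only. Of the 10 genes, 7 had at least 1 CPM in at least 3 libraries and were tested. Afp, Ttr and Apoa1 did not, so their levels are given, and tests only with that filter dropped. Of 7 ES cell markers (Pou5f1, Sox2, Nanog, Zfp42, Esrrb, Klf4 and Utf1), 5 fell with RA against LIF, beside 23.8% of all genes tested. Their summed level was between 649 and 2222 CPM in the LIF and no-LIF libraries, and 30.4 CPM in EGFP RA, 262 CPM in WT RA and 712 CPM in L122A RA. The RA library was the lowest within each transfectant: L122A cells had 2216 CPM with LIF and 2067 CPM without. Nanog is in this list and is also the gene carried by the WT and L122A constructs. Reads of the construct may therefore be part of the WT and L122A sums, and no sum without Nanog was taken.

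**Figure D1:**
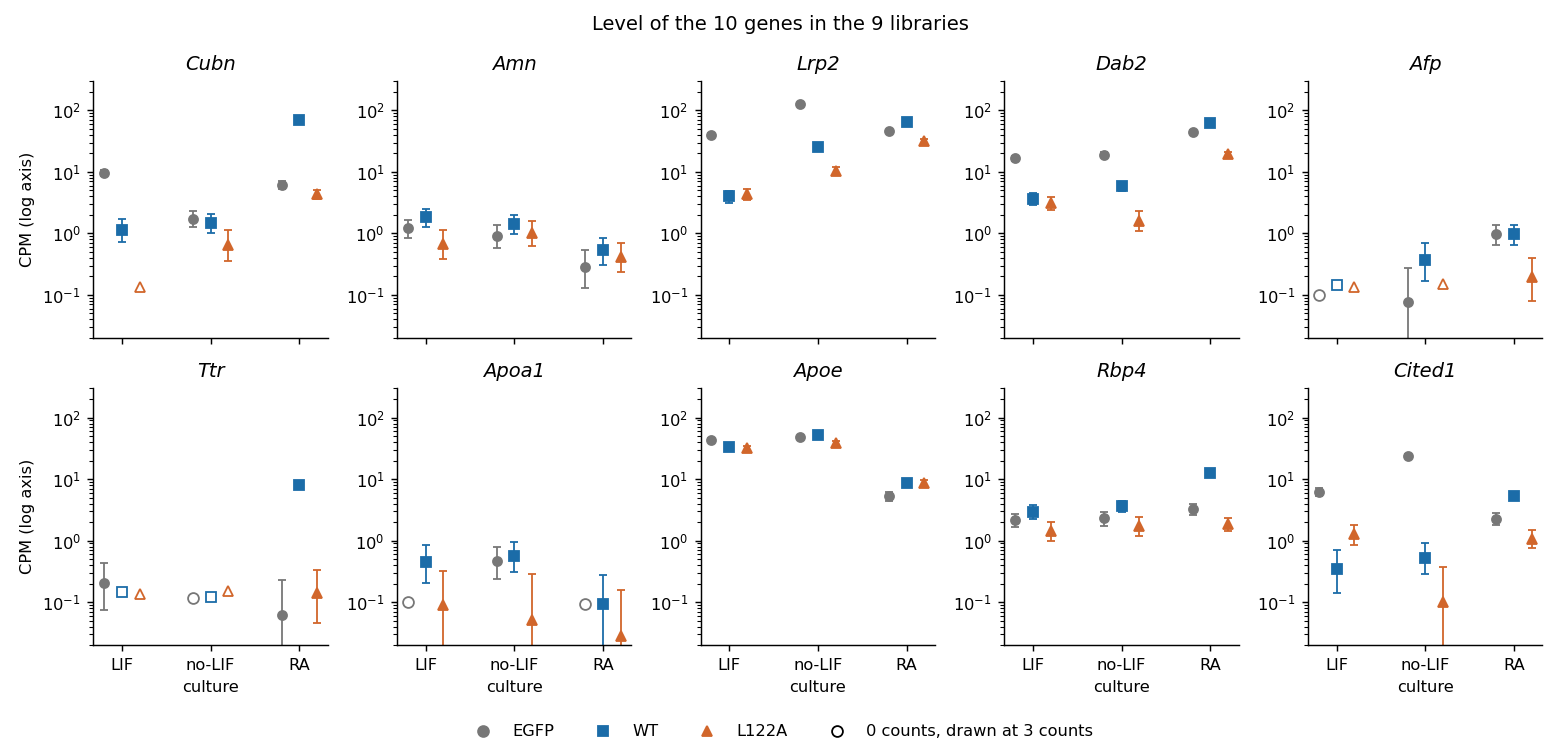
Level of each gene in CPM (log axis) by culture, with 1 point per library, coloured by transfectant. Bars are exact 95% Poisson intervals, some of which run below the axis, and open symbols are libraries with 0 counts, drawn at 3 counts. Cubn and Ttr peak in WT RA at 69.9 and 7.91 CPM, Lrp2 and Cited1 in EGFP no-LIF at 125 and 23.4 CPM, and the 3 RA points of Apoe lie below all others.

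The upstream windows of the receptor genes Cubn and Lrp2 and of Amn are shown because their transcripts did not move together with RA. Each is the 250 bases before the annotated start, from RefSeq on GRCm38.p6, with matches to GGGCGG (the GC box) in capitals, which appear as CCGCCC where the match is on the other strand. The coordinates belong to that build and not to mm9, the build of the count table. The bases after the RefSeq start of Cubn were not found in the GENCODE vM21 transcripts of that gene, so its window may not be the start used in these cells.

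Cubn, chr2:13491877-13492126, minus strand: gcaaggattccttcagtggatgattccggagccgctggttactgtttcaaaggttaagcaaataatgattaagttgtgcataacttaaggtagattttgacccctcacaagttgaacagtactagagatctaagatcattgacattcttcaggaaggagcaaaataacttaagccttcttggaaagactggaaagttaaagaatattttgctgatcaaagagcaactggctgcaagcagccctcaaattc
Lrp2, chr2:69586030-69586279, minus strand: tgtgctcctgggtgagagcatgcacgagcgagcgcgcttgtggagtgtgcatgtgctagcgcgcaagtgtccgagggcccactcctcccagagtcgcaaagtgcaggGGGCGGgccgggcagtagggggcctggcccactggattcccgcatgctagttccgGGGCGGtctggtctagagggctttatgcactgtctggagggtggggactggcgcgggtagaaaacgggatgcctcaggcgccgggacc
Amn, chr12:111270846-111271095, plus strand: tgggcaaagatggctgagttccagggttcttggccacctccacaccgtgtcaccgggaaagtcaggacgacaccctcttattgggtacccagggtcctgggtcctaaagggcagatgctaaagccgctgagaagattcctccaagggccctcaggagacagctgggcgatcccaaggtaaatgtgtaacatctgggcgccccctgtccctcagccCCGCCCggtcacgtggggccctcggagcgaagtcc

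The Cubn window held 39.6% G and C bases and 2 CG pairs, against 66.4% and 18 in Lrp2 and 61.2% and 11 in Amn. The median over 32851 such windows was 52.4% G and C. Lrp2 held 2 matches to GGGCGG and Amn 1, and 32.7% of all windows held at least 1. The other sequences searched on both strands gave 0 matches in these 3 windows. AGGTCA, a half-site of nuclear receptors, stood in 14.0% of all windows. The core letters bound by zinc-finger factors such as Gata6, AGATAA, stood in 9.99%, and those of forkhead factors, TGTTTAC, in 3.17%. ATTGTT, bound by SOX factors, stood in 9.42%, and TATAAA, the usual core promoter element, in 12.4%.

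Cubn (ENSMUSG00000026726, mm9 chromosome 2, 13197964 to 13413551) was at 9.50, 1.72 and 6.10 CPM in EGFP cells with LIF, without LIF and with RA. In WT cells it was at 1.13, 1.47 and 69.9 CPM. In L122A cells it had 0 counts with LIF (a floor of 3 counts is 0.135 CPM there, and the exact upper limit 0.166 CPM), and stood at 0.658 and 4.32 CPM without LIF and with RA. WT RA alone held 74.9% of all Cubn counts. RA raised Cubn over the no-LIF cultures by 17.2-fold across the transfectants (log2 fold change 4.10, SE 1.39, edgeR adjusted p = 0.0433), and the level was higher in 3 of 3 transfectants. Leaving out WT RA ended this call (log2 2.31, adjusted p = 0.261), as did leaving out EGFP no-LIF, L122A no-LIF, L122A RA, WT no-LIF or WT LIF (adjusted p between 0.0635 and 0.170). Over all genes, RA against no-LIF called 3168 higher and 3067 lower with all libraries, and 1881 and 1734 without WT RA. The other fits named called between 2117 and 2966 higher and between 2040 and 2811 lower. Against LIF the log2 fold change was 3.31 (SE 1.48, edgeR adjusted p = 0.0990). Cubn was called higher against LIF by DESeq2 (log2 3.88, adjusted p = 0.0350), and by edgeR without EGFP LIF (5.69, adjusted p = 0.0086) or without EGFP RA (4.84, adjusted p = 0.0070). The direction differed between cells: the EGFP RA library was 1.56-fold below EGFP LIF. WT RA was 61.8-fold above WT LIF (interval 41.1 to 97.7), and L122A RA was 31.9-fold above the floor of 3 counts for L122A LIF. A gene on the opposite strand, AL928807.1, overlaps Cubn and had between 0 and 14 counts.

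Amn (ENSMUSG00000021278, mm9 chromosome 12, 112509308 to 112514463), whose product anchors cubilin, was low throughout. It stood at 1.20, 0.915 and 0.280 CPM in EGFP, at 1.82, 1.43 and 0.532 CPM in WT, and at 0.677, 1.01 and 0.421 CPM in L122A cells, in the order LIF, no-LIF, RA. The 3 RA libraries were the lowest of the 9, from 9 to 17 counts each. Amn fell with RA against LIF by 2.90-fold (log2 -1.54, SE 0.53, edgeR adjusted p = 0.0413). The call was lost without any 1 library other than L122A LIF (adjusted p up to 0.150) and with scaling by total counts (adjusted p = 0.114). Over all genes, fits without 1 library called between 2237 and 3394 higher and between 1995 and 3286 lower, where all libraries gave 3423 and 3328. Against no-LIF the log2 fold change was -1.43 (SE 0.53, adjusted p = 0.0549).

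The receptor and its anchor therefore stood in different proportions across libraries. Per kilobase, there were 1.03 Cubn reads for each Amn read in EGFP LIF (interval 0.728 to 1.50), 0.245 in EGFP no-LIF and 2.85 in EGFP RA. In WT cells the ratio was 0.0813 with LIF, 0.135 without LIF and 17.2 with RA (10.7 to 29.6). In L122A cells it was at most 0.0365 with LIF, 0.0850 without LIF and 1.34 with RA (0.789 to 2.46). Within each transfectant the RA ratio was the highest of the 3, although the EGFP LIF and EGFP RA intervals overlap.

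**Figure D2:**
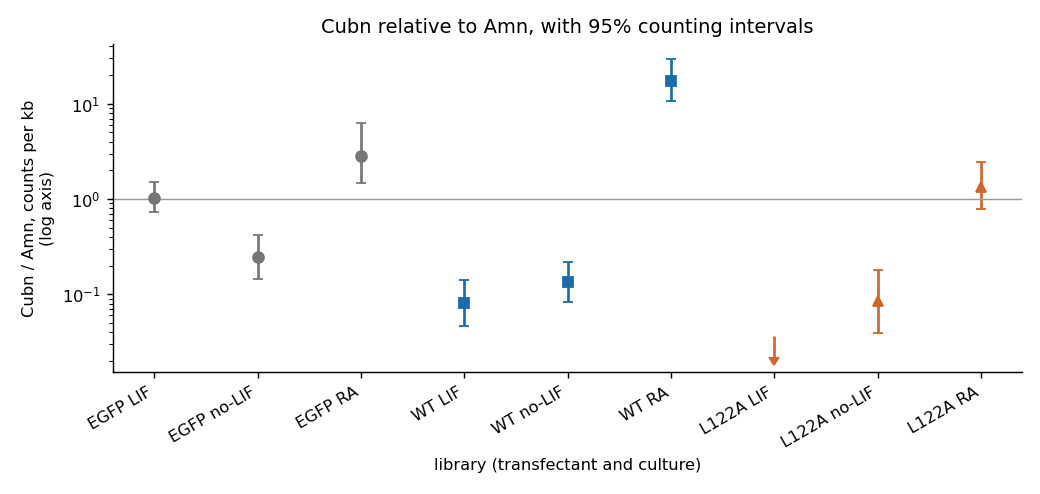
Ratio of Cubn to Amn counts per kilobase of gene (log axis) in each library, with exact 95% intervals for counting error. The arrow marks the upper limit for L122A LIF, where Cubn had 0 counts; WT RA lies highest at 17.2.

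Lrp2 (ENSMUSG00000027070, mm9 chromosome 2, 69262396 to 69424122) was the receptor gene with the most counts. It stood at 40.1, 125 and 45.9 CPM in EGFP cells with LIF, without LIF and with RA. In WT cells it was at 3.98, 25.2 and 64.5 CPM, and in L122A cells at 4.38, 10.4 and 31.9 CPM. The WT and L122A libraries climbed from LIF to no-LIF to RA, whereas in EGFP cells the no-LIF library was the highest of all 9. RA raised Lrp2 over LIF by 5.82-fold (log2 2.54, SE 0.68, edgeR adjusted p = 0.0169), with a higher level in 3 of 3 transfectants. Leaving out either the LIF or the RA library of WT or of L122A ended the call (adjusted p between 0.0524 and 0.0872), and the log2 fold change was 1.94 without WT RA. Over all genes these fits called between 2237 and 2752 higher and between 1995 and 2798 lower, where all libraries gave 3423 and 3328. Against no-LIF the log2 fold change was 0.77 (SE 0.64, adjusted p = 0.353), and 1.51 without EGFP RA, where it was called (adjusted p = 0.0058). Lrp2 was 2.56-fold and 3.06-fold higher with RA in WT and L122A cells, and 2.72-fold lower in EGFP cells.

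Dab2 (ENSMUSG00000022150, mm9 chromosome 15, 6249848 to 6390705), the adaptor, was at 16.8, 19.1 and 45.1 CPM in EGFP, at 3.64, 5.79 and 61.8 CPM in WT, and at 3.11, 1.62 and 19.7 CPM in L122A cells, in the order LIF, no-LIF, RA. All 3 RA libraries lay above the other 6, though L122A RA and EGFP no-LIF differed by less than their counting intervals. RA raised Dab2 by 6.97-fold over LIF (log2 2.80, SE 0.53, edgeR adjusted p = 0.0038) and by 6.95-fold over no-LIF (log2 2.80, SE 0.53, adjusted p = 0.0043). Both calls held under all 15 alternatives tried, with adjusted p at most 0.0263. D630005B22Rik, which lies inside the span of Dab2 on the same strand, had 0 counts in every library.

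Among the secreted proteins, Apoe (ENSMUSG00000002985, mm9 chromosome 7, 20281621 to 20284401), a lipid carrier also made by many other cell types, moved the other way. It stood at 43.7, 48.2 and 5.23 CPM in EGFP, at 33.2, 52.0 and 8.76 CPM in WT and at 32.5, 38.4 and 8.55 CPM in L122A cells, with LIF, without LIF and with RA. The 3 RA libraries were below the other 6 with no overlap. Apoe fell by 4.87-fold against LIF (log2 -2.28, SE 0.27, edgeR adjusted p = 6.13e-04) and by 6.13-fold against no-LIF (log2 -2.62, SE 0.27, adjusted p = 5.75e-04), and both calls held under all 15 alternatives. Per length, Apoe was still the most abundant of the 5 secreted protein genes in the EGFP LIF library at 41.1 deposited FPKM, where Rbp4 was at 1.84 and Ttr at 0.34. In WT RA, Ttr (15.8 FPKM) and Rbp4 (12.9 FPKM) stood above Apoe (9.67 FPKM).

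Ttr (ENSMUSG00000061808, mm9 chromosome 18, 20823913 to 20832383), the thyroid hormone carrier that also binds Rbp4, was read almost only in WT RA. That library held 253 of its 266 counts, 7.91 CPM (interval 6.97 to 8.95). EGFP LIF had 6 counts, L122A RA had 5, EGFP RA had 2, and the other 5 libraries had 0. WT RA was thus at least 53.6-fold above WT LIF and 64.6-fold above WT no-LIF, and 56.4-fold above L122A RA (23.9 to 175).

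Rbp4 (ENSMUSG00000024990, mm9 chromosome 19, 38191116 to 38199738), which carries retinol in plasma, also peaked in WT RA, at 12.8 CPM. The other 8 libraries ran from 1.44 (L122A LIF) to 3.59 CPM (WT no-LIF). With RA it was 1.51-fold higher than with LIF in EGFP cells, 4.33-fold in WT and 1.28-fold in L122A cells, the last with an interval that includes no change (0.828 to 2.02). Over the transfectants the log2 fold change against LIF was 1.09 (SE 0.45, edgeR adjusted p = 0.0752), which did not pass. Rbp4 was called higher with scaling by total counts (log2 1.46, adjusted p = 0.0370) and by limma on log2 FPKM (1.06, adjusted p = 0.0337). Without WT RA the edgeR log2 fold change was 0.49.

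Afp (ENSMUSG00000054932, mm9 chromosome 5, 90919764 to 90937882), the classic secreted marker of this epithelium, stayed below 1 CPM in every library. It had 31 counts in EGFP RA and in WT RA (0.964 and 0.969 CPM) and 7 in L122A RA, and 0 in all 3 LIF libraries. Without LIF it had 2, 9 and 0 counts in EGFP, WT and L122A cells. With the 0 counts of each LIF library set to a floor of 3 counts, EGFP RA was 9.61-fold and WT RA 6.57-fold above LIF. L122A RA was 1.45-fold above that floor, on 7 counts. These ratios leave out the counting error of the RA libraries. With the filter on low counts dropped, edgeR called Afp higher with RA against LIF (adjusted p = 0.0055), beside 3496 higher and 3011 lower of 25920 genes. Against no-LIF that fit did not call Afp (adjusted p = 0.111). It called Ttr and Apoa1 in neither comparison (adjusted p at least 0.153).

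Apoa1 (ENSMUSG00000032083, mm9 chromosome 9, 46036662 to 46038549), the main protein of high-density lipoprotein, had at most 14 counts. Those were in WT no-LIF (0.571 CPM), followed by EGFP no-LIF with 12 and WT LIF with 9. The EGFP, WT and L122A RA libraries had 0, 3 and 1 counts, so Apoa1 did not show the RA peak of Ttr and Rbp4 at this depth.

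Cited1 (ENSMUSG00000051159, mm9 chromosome X, 99442719 to 99447520) encodes a co-regulator without DNA binding of its own. It stood at 6.22, 23.4 and 2.27 CPM in EGFP cells with LIF, without LIF and with RA. In WT cells it was at 0.344, 0.530 and 5.28 CPM, and in L122A cells at 1.26, 0.101 (2 counts) and 1.07 CPM. EGFP cells were highest without LIF and lowest with RA, WT cells were highest with RA, and L122A cells differed between LIF and RA by less than the counting interval (ratio 0.843, 0.504 to 1.43). Its culture effects did not pass the test: log2 1.19 for RA against LIF (SE 1.40, edgeR adjusted p = 0.508) and 0.82 against no-LIF (SE 1.53, adjusted p = 0.689).

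In all, RA against LIF called 2 of the 7 tested genes higher (Lrp2 and Dab2), where the test called 24.5% of 13996 genes higher, and 2 lower (Amn and Apoe), beside 23.8% of all genes. RA against no-LIF called 2 higher (Cubn and Dab2; 22.6% of all genes) and 1 lower (Apoe; 21.9%). These shares are near the background, so the count of calls does not set the group apart from other genes. Both comparisons share the RA libraries. With scaling by total counts in place of TMM, RA against LIF called 4501 genes higher and 1947 lower, where TMM gave 3423 and 3328. All 3 RA libraries lay above the other 6 for 1 member, Dab2 (22.5% of all genes), and below them for 2, Amn and Apoe (21.8%). WT RA was the highest of the 9 libraries for Cubn, Dab2 and Rbp4 (10.3% of all genes), and EGFP no-LIF for Lrp2 and Cited1 (8.93%). LIF withdrawal called 0 of the 7 (0.0714% of all genes were called). Among the 7, only Lrp2 had an unadjusted p below 0.05, and the share of all genes at that threshold was not taken. DESeq2 called Lrp2 higher, beside 157 higher and 121 lower of 13996 genes, while limma called 0, beside 0 higher and 4 lower. Lrp2 was 3.12-fold, 6.32-fold and 2.38-fold higher without LIF in EGFP, WT and L122A cells (log2 1.77, SE 0.64, edgeR adjusted p = 0.474).

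Within each transfectant, the size of the change from LIF to RA was not the same. Dab2 with RA was 2.69 times its LIF level in EGFP cells (interval 2.43 to 2.99), 17.0 times in WT (13.5 to 21.7) and 6.31 times in L122A cells (4.93 to 8.21). Lrp2 was 1.14 times its LIF level in EGFP (1.06 to 1.24), 16.2 times in WT (13.0 to 20.5) and 7.28 times in L122A cells (5.91 to 9.05). For both genes the intervals of the 3 transfectants do not overlap. Apoe with RA was 0.120 times its LIF level in EGFP, 0.264 times in WT and 0.263 times in L122A cells. Cited1 was 0.365 times its LIF level in EGFP (0.275 to 0.481) and 15.3 times in WT cells (7.29 to 38.7). These intervals cover counting error between single libraries.

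**Figure D3:**
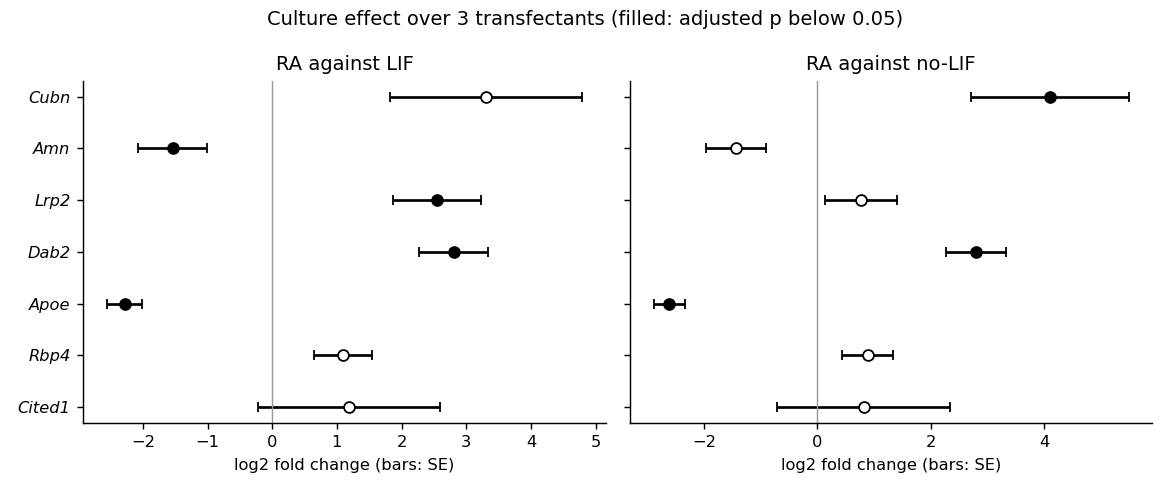
Log2 fold change of the 7 tested genes for RA against LIF (left) and RA against no-LIF (right) over the 3 transfectants, with SE as bars; filled points passed an adjusted p of 0.05. Dab2 lies to the right of 0 and Apoe to the left in both panels, each with a filled point.

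The next question was whether the transfectants differed, first by single libraries. With LIF, Lrp2 was 10.1-fold lower in WT and 9.17-fold lower in L122A than in EGFP cells, and Dab2 4.60-fold and 5.38-fold lower. Cubn was 8.39-fold lower in WT and at least 70.2-fold lower in L122A LIF. Without LIF, Cited1 was 44.2-fold lower in WT than in EGFP cells. Cubn did not differ from EGFP beyond counting error in WT no-LIF (ratio 0.856, interval 0.536 to 1.36), but was lower in L122A no-LIF (ratio 0.383, interval 0.190 to 0.723).

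With RA, Cubn was 11.5-fold higher in WT than in EGFP cells (interval 9.91 to 13.4), Rbp4 3.95-fold and Cited1 2.33-fold, while Lrp2 and Dab2 were 1.40-fold and 1.37-fold higher. Ttr was 127-fold higher, with an interval from 34.8 to 1056 since EGFP RA had 2 counts. Afp stood at 31 counts in each (ratio 1.01, 0.591 to 1.71).

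Between the RA libraries of the Nanog forms, Cubn was 16.2-fold lower in L122A than in WT, Rbp4 6.91-fold, Cited1 4.96-fold, Dab2 3.15-fold and Lrp2 2.03-fold lower. Afp was 4.94-fold lower on 7 counts. Apoe differed by less than its interval (ratio 0.977, 0.828 to 1.15), as did Amn (ratio 0.791, 0.368 to 1.68). Against EGFP RA, Dab2 was 2.30-fold lower and Cubn 1.41-fold lower in L122A RA, and Apoe was 1.64 times as high (1.35 to 1.99).

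**Figure D4:**
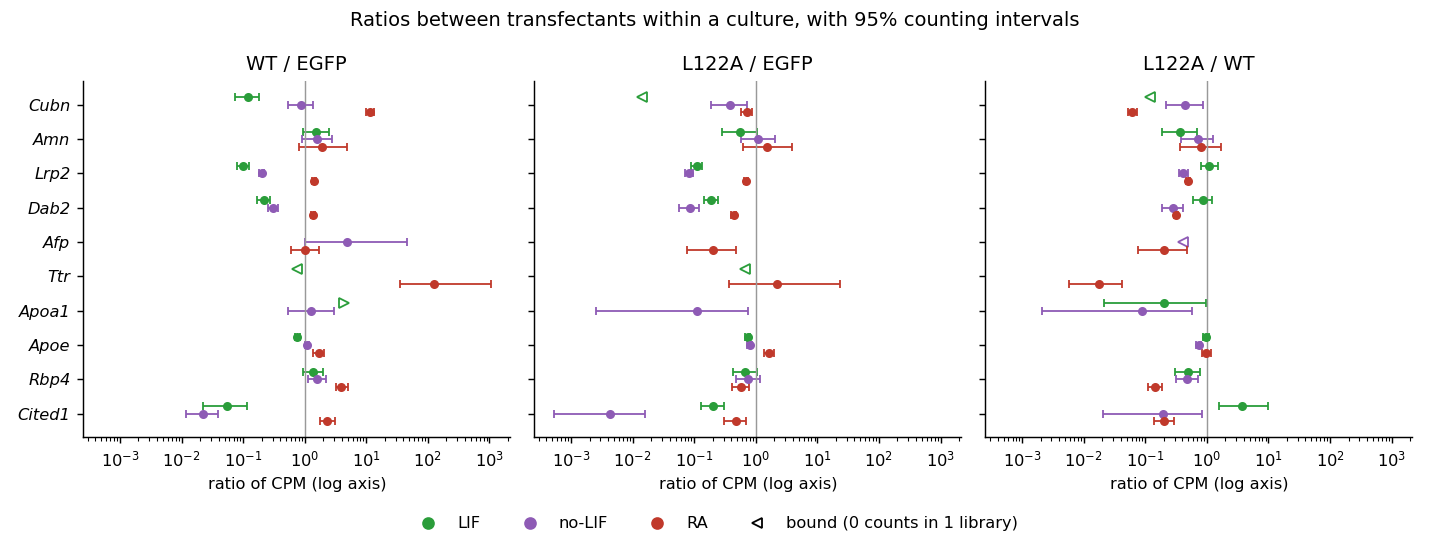
Ratio of CPM between transfectants within each culture (log axis), for each gene, with exact 95% intervals for counting error; open triangles are bounds where 1 library had 0 counts. In the left panel the RA points of Cubn, Lrp2, Dab2 and Cited1 lie to the right of 1 and their LIF points to the left; in the right panel the RA points of 7 genes, Afp among them, lie at 0.494 or below.

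These are single libraries, and the tests over the 3 cultures called none of the 7 genes between transfectants. For WT against EGFP, edgeR called 0 (0.322% of all genes), and 3 had an unadjusted p below 0.05. DESeq2 called 1, beside 189 higher and 420 lower of 13996 genes, and limma called 0, beside 1 higher and 10 lower. For L122A against EGFP, edgeR called 0 (2.88% of all genes), with Dab2 nearest at log2 -2.46 (SE 0.53, adjusted p = 0.0503) and Lrp2 next at -2.71 (SE 0.67, adjusted p = 0.0784). In that comparison 3 had an unadjusted p below 0.05. No share of all genes was taken at that unadjusted threshold for any comparison, so such counts have no background here. DESeq2 called 3, beside 564 higher and 874 lower of 13996 genes, and limma called 0, beside 69 higher and 136 lower. Leaving out EGFP RA changed these counts: without it edgeR called Lrp2 lower in WT than in EGFP (log2 -2.70, adjusted p = 0.0096). Without it edgeR also called Lrp2 (-3.48, adjusted p = 0.0020), Dab2 (-3.07, adjusted p = 0.0052) and Cited1 (-4.97, adjusted p = 0.0415) lower in L122A than in EGFP. Over all 13996 genes, edgeR without EGFP RA called 18 higher and 130 lower in WT, and 143 higher and 396 lower in L122A. L122A was below EGFP in all 3 cultures for 5 of the 7 genes (Cubn, Lrp2, Dab2, Rbp4 and Cited1), as for 19.3% of all genes. For L122A against WT, edgeR, DESeq2 and limma called 0 of the 7, and 2 had an unadjusted p below 0.05. Over all genes edgeR called 0%, limma 0, and DESeq2 26 higher and 25 lower of 13996. L122A was below WT in all 3 cultures for 5 of the 7 (Cubn, Amn, Dab2, Apoe and Rbp4), as for 12.8% of all genes.

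Whether the RA response itself differed between the Nanog transfectants and EGFP was tested with WT and L122A as 2 libraries of 1 class. EGFP had 1 library per culture, so the spread in this test is the difference between WT and L122A. Where those differ widely, as for Cubn with RA (16.2-fold), a missing call does not show an equal response. The largest difference was that of Cubn (log2 6.69, SE 2.71, edgeR adjusted p = 0.445), followed by Cited1 (3.41, SE 1.60, adjusted p = 0.476) and Lrp2 (3.33, SE 0.84, adjusted p = 0.290). edgeR called 0 of the 7 (0.00714% of all genes). At an unadjusted p below 0.05 there were 3 (Cubn, Lrp2 and Apoe), with no share of all genes taken at that threshold. DESeq2 called 1 (Lrp2) and limma 0, where limma called 6 higher and 10 lower over all genes. Without the filter on low counts edgeR called 5 (Cubn, Lrp2, Dab2, Ttr and Cited1). Calls over all genes rose in these settings too, to 492 higher and 192 lower of 25920 genes without the filter. With DESeq2 they were 168 higher and 98 lower of 12910 genes. For the response to LIF withdrawal edgeR, DESeq2 and limma called 0 of the 7, and 0 had an unadjusted p below 0.05. Over all genes edgeR called 0%, limma 0, and DESeq2 80 higher and 41 lower of 13182.

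Of 24 listed partners of the endocytic receptors, all tested, 10 rose with RA against LIF and 0 fell (median log2 0.47, against 0.01 over all genes, of which 24.5% rose and 23.8% fell). Among the genes called, the 3 with the largest change were Clcn5, an endosomal chloride transporter (log2 2.77, edgeR adjusted p = 5.25e-04), the receptor Lrp1 (2.04, adjusted p = 0.0198) and the motor Myo6 (1.18, adjusted p = 0.0069). Lrpap1, the chaperone of megalin, was at 118 CPM in WT RA and between 18.7 and 70.1 CPM in the other 8 libraries (log2 1.23, adjusted p = 0.0793). Of 10 retinol and lipoprotein handling genes 8 were tested, and 4 rose and 0 fell (median 1.17), beside the same background of 24.5% and 23.8%. Stra6, the cell-surface receptor for retinol bound to Rbp4, rose most (log2 6.10, adjusted p = 5.32e-04): EGFP RA had 19.4 CPM, WT RA 61.9 CPM and L122A RA 25.3 CPM, with at most 1.13 CPM elsewhere. Rdh10, a retinol dehydrogenase (1.85, adjusted p = 0.0044), and the lipase Lpl (1.47, adjusted p = 0.0034) followed.

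Other secreted proteins of visceral endoderm and liver were mostly near 0. Of 22 listed, 5 passed the filter, and with RA against LIF 0 rose and 1, Apoc1, fell, where 24.5% of all genes rose and 23.8% fell. Apoc1, which lies beside Apoe, fell with it (log2 -1.87, adjusted p = 0.0015), from between 11.9 and 35.0 CPM to 2.77 CPM in EGFP RA, 7.88 CPM in WT RA and 12.7 CPM in L122A RA, the last overlapping EGFP no-LIF at 11.9 CPM. The other neighbours of Apoe, Apoc2 and Apoc4, were at most 0.361 CPM. The neighbours of Apoa1 (Apoa4, Apoa5 and Apoc3) were at most 0.114 CPM, and those of Afp (Alb, Afm and Gc) at most 0.686 CPM, with Alb at 1 count in WT RA and 0 elsewhere. Chosen after their values were seen, Fgb and Cp followed the Ttr pattern at low level. Fgb stood at 3.41 CPM and Cp at 4.60 CPM in WT RA, at 0.785 and 1.57 CPM in L122A RA, and at most 0.361 CPM elsewhere. Others did not follow it: Fgg was at 0.0313 CPM in WT RA and 1.10 CPM in WT no-LIF, and Ahsg at 0 and 0.694 CPM. WT RA was the highest of the 9 libraries for 5 of the 19 listed genes with a count.

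Markers of the tissue were read beside these genes, with the same background of 24.5% of all genes higher and 23.8% lower with RA against LIF. Of 16 visceral endoderm markers, a list with genes outside the 10, 15 matched and 12 were tested; with RA against LIF 10 rose, led by the transcription factors Foxa2 (log2 6.39, edgeR adjusted p = 0.0221), Gata6 (4.97, adjusted p = 0.0012) and Lhx1 (4.74, adjusted p = 0.0109), and 1, Spink3, fell. Their summed level with RA was 88.1 CPM in EGFP, 149 CPM in WT and 94.7 CPM in L122A cells, and between 17.1 and 37.1 CPM in the others. Some members of the list stayed low: Hnf4a, a master regulator of this epithelium, was at most 1.11 CPM. The secreted signal Ihh was at most 0.375 CPM and Cer1, which is also in the definitive endoderm list, at most 1.07 CPM. Foxa2 was at 8.51 CPM in WT RA and at most 2.21 CPM elsewhere. With Afp below 1 CPM and Hnf4a at most 1.11 CPM, these RNA pools do not show the full visceral endoderm pattern. The 10 genes are described here by name rather than as a cell type. In bulk RNA, fewer cells of a type and less RNA per cell cannot be told apart.

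Markers of other cells moved with RA too, and their counts stand beside 24.5% of all genes higher and 23.8% lower. Of 12 parietal endoderm markers, genes of the matrix-secreting sister tissue, 11 were tested and 10 rose against LIF, led by Plat (edgeR adjusted p = 2.82e-04), Col4a1 (log2 4.71, adjusted p = 5.78e-04) and Col4a2 (log2 4.59, adjusted p = 4.12e-04). Their sum with RA was 4578 CPM in EGFP, 3237 CPM in WT and 1353 CPM in L122A cells, and between 268 and 1183 CPM in the others. Sparc alone was 3136 CPM in EGFP RA, and 7 of the 12 were highest in WT RA, among them Lamc1 (426 CPM) and Col4a1 (429 CPM), as were 8 of the 15 visceral endoderm markers. Of 6 fibroblast markers 4 rose, with 385 CPM in EGFP RA, 50.7 CPM in WT RA and 21.6 CPM in L122A RA, where L122A cells had 18.0 CPM with LIF and 7.94 CPM without. Of 6 neuroepithelial markers 1 rose, Nes. Within each transfectant that list was highest with RA: from 36.1 and 80.1 CPM with LIF and without to 194 CPM in EGFP, from 15.1 and 10.7 to 62.2 CPM in WT, and from 14.0 and 15.1 to 48.6 CPM in L122A cells. Nes made up most of the RA sums, at 186, 54.5 and 38.2 CPM, and Sox1 was at most 0.168 CPM. Of 6 definitive endoderm markers, 3 of them also in the visceral endoderm list, 2 rose and 1, Trh, fell from 223 CPM in EGFP LIF to 0.715 CPM in EGFP RA. Hepatocyte markers summed to at most 1.82 CPM in any library. Of 6 macrophage genes 2 were tested, and 0 rose and 1, Itgam, fell (log2 -2.49, edgeR adjusted p = 0.0075). That list summed to between 9.27 and 23.3 CPM, with 15.1 CPM in EGFP RA, 10.04 CPM in WT RA and 10.6 CPM in L122A RA, most of it Cd68, while Ptprc, Csf1r, Emr1 and Tyrobp were each at most 0.367 CPM. The part of other cell types in the RA levels of the 10 genes was not tested.

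Genes with the most similar pattern over the 9 libraries were taken by Pearson correlation of log2 CPM, as a description over libraries that share culture and transfectant. For Cubn they were Fam167a, Fndc3a and Srgn (r = 0.97, 0.96 and 0.95), the last a member of the parietal endoderm list. For Lrp2 they were Sema6a, Slc35f1 and Vti1a (0.98, 0.97 and 0.96), and for Dab2 Mfhas1, Tmem117 and Mesdc1 (0.98, 0.98 and 0.97). Amn was most like Actn2, Spag1 and Adcy7 (0.97, 0.97 and 0.96), Apoe like Ptma, RP23-265I19.1 and Utp14a (0.996, 0.99 and 0.99), Rbp4 like 2810021J22Rik, Spdya and Fam149b (0.91, 0.90 and 0.90), and Cited1 like Opn3, Map1lc3a and Hand1 (0.96, 0.94 and 0.93). Among the 7 tested genes themselves, Cubn and Dab2 had r = 0.85, Amn and Apoe 0.84, and Lrp2 and Dab2 0.81. Dab2 and Apoe had -0.68, Amn and Dab2 -0.62, Cubn and Apoe -0.57, and Cubn and Amn -0.37.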

How the data were processed

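The submitters' processing notes name TopHat2 2.0.11 and the build mm9. How reads were counted and whether strand was used is not given in the sources used here. Each raw count per gene and the FPKM were made by the authors, per the file headers; in every library 100% of FPKM above 5 equalled the count scaled by gene length and library total within 1%. Columns were matched to samples by name, and the column with a culture name in no label was taken as LIF by elimination. Members and lists were chosen with earlier results of these data known: all 10 genes, the 3 called genes of each list with the largest RA change, all cluster neighbours, and the 3 most similar genes (log2 of CPM plus 0.5) are named. The 13996 genes that reached 1 CPM in 3 or more libraries were tested in edgeR 4.0.16 (R 4.3.3) with TMM factors (0.810 to 1.25) and a quasi-likelihood additive model of culture and transfectant. It has 4 residual degrees of freedom, its spread is the departure from additivity, and Benjamini-Hochberg adjusted p below 0.05 was called. Each SE was computed by dividing the size of the log2 fold change by the root of its F statistic. With no replicate cultures, p-values ask whether an effect of 1 factor repeats across the levels of the other. The difference of responses had 3 residual degrees of freedom. Library ratios have exact 95% binomial intervals, and 0 counts were given a floor of 3 counts per library. Ratios to that floor have no interval and leave out the counting error of the other library. Alternatives used DESeq2 1.42.0, limma 3.58.1 on log2 of FPKM plus 1, RLE factors, total counts, no filter, only the levels compared, and each library left out. The scripts were tested on simulated data. Promoters of 9 members were found; the motif search used Python 3.11.15, and that of Ttr is not reported here.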

Additional observations from a re-analysis of the deposited data

Results flagged for a closer look

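In 3 cases the EGFP library moved one way and both Nanog libraries the other, each beyond counting error. Cubn with RA was 0.642 times its LIF level in EGFP cells (interval 0.532 to 0.773), and 61.8 times in WT cells. In L122A cells it was 31.9 times the floor of 3 counts set for LIF. The difference of this response had an edgeR adjusted p of 0.445. Lrp2 with RA was 0.367 times its no-LIF level in EGFP cells (0.345 to 0.391), against 2.56 times in WT and 3.06 times in L122A cells. Cited1 with RA was 0.0970 times its no-LIF level in EGFP cells (0.0750 to 0.124), against 9.96 times in WT and 10.5 times in L122A cells, the last on 2 counts without LIF. The differences of Lrp2 and Cited1 against no-LIF were not tested, and both rest on the EGFP no-LIF library, where these genes had their highest level.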

How the results depend on the processing

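Scaling by total counts moved the median of all genes for RA against LIF to 0.39 and for RA against no-LIF to 0.43 (log2). Of the member tests under alternatives, 733 kept their side of the threshold, 25 gained a call, 26 lost one, and 0 called values changed direction. Members called for RA against LIF, 4 in the report, were 2 with only the 2 levels compared and between 2 and 4 without 1 library (2 without WT LIF, WT RA or L122A RA). Calls over all genes fell too, from 3423 higher and 3328 lower to 3264 and 3047 with only the 2 levels compared. They were 2276 and 2212 without WT LIF, 2237 and 1995 without WT RA, and 2726 and 2798 without L122A RA. For RA against no-LIF, 3 in the report, members called were between 2 and 4 without 1 library (4 without EGFP RA). All genes gave 2855 higher and 2847 lower without EGFP RA, where all libraries gave 3168 and 3067. For LIF withdrawal, 0 in the report, members called were 1 with DESeq2, 1 with only the levels compared, and between 0 and 1 without 1 library (1 without EGFP RA). All genes gave 157 higher and 121 lower with DESeq2, 48 and 42 with only the levels compared, and 18 and 26 without EGFP RA. For WT against EGFP members called were 1 with DESeq2 and between 0 and 1 without 1 library (1 without EGFP RA), each time Lrp2. All genes gave 189 higher and 420 lower with DESeq2, and 18 and 130 without EGFP RA. For L122A against EGFP they were 1 with RLE factors (Dab2), 3 with DESeq2 and between 0 and 3 without 1 library (3 without EGFP RA: Lrp2, Dab2 and Cited1). Without a filter, 5 were called for the difference of RA responses and 2 (Cubn and Cited1) for that of LIF withdrawal, 1 with DESeq2 for the former. Calls over all genes moved with the setting as well. Without a filter they were 492 higher and 192 lower of 25920 genes for the difference of RA responses. For that of LIF withdrawal they were 268 higher and 135 lower. The causes were not tested. Of the library ratios under other scaling, 248 stayed within their counting interval and 30 moved beyond it. Depth limits Afp, Apoa1 and Amn, whose libraries hold at most 37 counts. The model already compares cultures within each transfectant and transfectants within each culture, and the labels give no replicate numbers for a further block.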
